A study of Mus musculus with 8 samples.

Results

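Mouse bone marrow progenitors sorted as CD34bright were compared with progenitors sorted as CD48bright, 2 RNA-seq libraries a side, which are 4 of the 8 libraries of the series. Libraries were chosen by their sort gates and not by any measured value. The CD34bright cells were KIT+ CD16/32- CD34bright CD41+ CD9+. The CD48bright cells were KIT+ CD16/32- CD34dim CD41+ CD9+ CD48bright. The other 4 libraries, 2 of CD34dim CD41+ CD9+ CD48dim cells and 2 of CD34dim CD41- CD9- cells, also KIT+ CD16/32-, served to estimate the spread and as a yardstick. All cells came from primary bone marrow of wild-type C57BL/6 mice, and the labels give no age, sex or number of animals. Nothing in them says that the 2 libraries of a population are separate animals or sorts, so p-values measure only the spread between libraries, which may be technical.

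KIT is the receptor for stem cell factor and is carried by immature blood cells. CD34 is a sialomucin of progenitors, CD48 a SLAM family protein that is low on stem cells, and CD41 (integrin alpha 2b) and the tetraspanin CD9 are carried by the megakaryocyte lineage and some early progenitors. Common myeloid progenitors give rise to granulocytes, monocytes, erythroid cells and megakaryocytes, and the series parted them into fractions. The comparison asks how near the CD34bright fraction lies to the CD48bright fraction and which genes separate both libraries of one from both libraries of the other.

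In replicate order, the totals of estimated counts were 20632005 and 15017611 in CD34bright and 19594630 and 10318447 in CD48bright. The precursor of ribosomal RNA, Rn45s, lay at 65761 and 105942 CPM (scaled counts relative to the library total) in CD34bright and at 65350 and 9142 CPM in CD48bright. The nuclear RNA Malat1 lay at 5004 and 11376 CPM in CD34bright and at 7103 and 12344 CPM in CD48bright. CD48bright replicate 2 was thus low in counts and in Rn45s, and both replicates numbered 2 were high in Malat1. It still had the most genes with a count of the libraries compared. That number was 15068, against 14343 in CD48bright replicate 1 and 14449 and 13807 in CD34bright. The part of this in differences at low levels was not tested. The CD48dim libraries lay far from one another (Spearman correlation 0.836), so results are also given without them. CD48dim replicate 2 lay farther from the other 6 libraries (Spearman correlation 0.808 to 0.858) than CD48dim replicate 1 did (0.852 to 0.919). The cluster code in the titles of the CD48bright samples is the code under which the values of the CD34bright samples were deposited, and the codes of the other populations differ in the same way. Each table was assigned to its population by the sample it was deposited for and by that sample's sort gate, and every direction below rests on that assignment.

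Of the genes behind the sort gate, Cd34 (chromosome 1, 194938821 to 194961292) lay at 509.6 and 460.6 CPM in the CD34bright libraries and at 233.0 and 397.5 CPM in the CD48bright libraries. The groups did not overlap, and both CD34bright libraries were the higher ones, as their label says. The log2 difference, CD34bright minus CD48bright, was 0.62 ± 0.38 (SE) and did not pass (edgeR adjusted p = 1). Cd48 (chromosome 1, 171681245 to 171705258) lay at 209.1 and 156.6 CPM in CD34bright and at 178.8 and 229.0 CPM in CD48bright. These groups overlapped, while the CD48dim libraries lay lower, at 35.8 and 16.9 CPM. The log2 difference between CD34bright and CD48bright was -0.16 ± 0.39. Kit lay at 606.8 and 612.6 CPM against 631.3 and 743.4 CPM. Itga2b, the gene of CD41, lay at 75.7 and 104.1 CPM against 93.8 and 64.3 CPM, and Cd9 at 40.8 and 56.8 CPM against 35.8 and 46.3 CPM. The genes of the Fc receptors seen as CD16/32, Fcgr3 and Fcgr2b, lay between 22.7 and 87.3 CPM in the 4 libraries. Of these 7 genes only Cd34, higher in CD34bright, and Kit, higher in CD48bright, had groups that did not overlap. Over all genes tested, groups did not overlap for 15.3% with CD34bright higher and for 16.7% with CD48bright higher. The order of Cd34 alone is thus weak evidence on the assignment.

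Library by library, distances between the 2 populations overlapped those between replicates. Distance was taken as the SD, across the 9304 genes with a mean of at least 10 CPM, of the log2 difference between 2 libraries. It was 0.492 between the CD34bright replicates and 0.652 between the CD48bright replicates. Across the populations it was 0.435 for replicate 1 against replicate 1 and 0.626 for replicate 2 against replicate 2. For CD34bright replicate 2 against CD48bright replicate 1 it was 0.534, and for CD34bright replicate 1 against CD48bright replicate 2 it was 0.724. The replicate 1 libraries of the 2 populations were therefore nearer to each other than either was to its own replicate, and 2.49% of genes lay at least 2-fold apart between them, against 3.72% between the CD34bright replicates and 10.8% between the CD48bright replicates. The Spearman correlation across the tested genes, which are not independent replicates, ran from 0.9495 to 0.9805 for the 4 pairs across the populations. By the same distance CD34bright libraries lay 0.832 to 0.974 from CD41- CD9- libraries and 0.950 to 1.51 from CD48dim libraries. CD48bright libraries lay 0.725 to 0.905 from CD41- CD9- libraries, so the nearest such pair was about as far apart as the farthest CD34bright and CD48bright pair, and 0.869 to 1.43 from CD48dim libraries. Libraries of the same number deviate together, and replicates of a population never share a number, so the pairs of unlike number, 0.534 and 0.724, are the like comparison for the replicate distances of 0.492 and 0.652. No test was made on these distances.

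**Figure D1:**
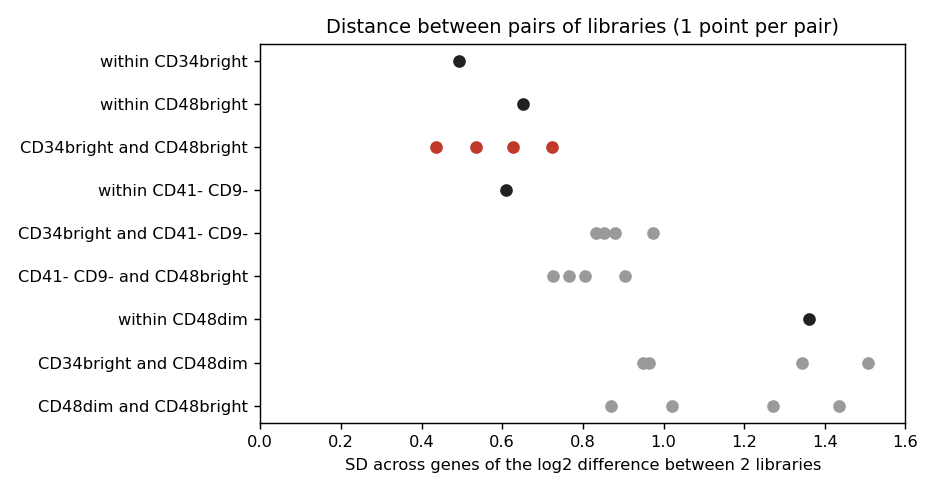
Each point is a pair of libraries, placed on the x axis by the SD across 9304 genes of their log2 difference in CPM. Rows are pairs of populations, and black marks replicates, red the CD34bright and CD48bright pairs and grey the other pairs. The 4 red points span 0.435 to 0.724 and take in both replicate distances, 0.492 and 0.652, while the grey pairs start at 0.725, level with the farthest red point.

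No gene passed the test between the populations. With edgeR's quasi-likelihood test on all 8 libraries, 0 of 13177 genes tested (0%) had an adjusted p below 0.05, the lowest adjusted p was 0.4682, and 262 genes had an unadjusted p below 0.05. Limma-voom also called 0 genes, with 277 at an unadjusted p below 0.05, and DESeq2 called 33, of which 31 were higher in CD48bright. In the same edgeR fit 111 genes (0.842%) were called between CD34bright and CD41- CD9- and 28 (0.212%) between CD48bright and CD41- CD9-. These comparisons share libraries.

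A count of 0 does not show that the populations are alike at every gene. The 95% interval of the log2 difference lay wholly within 2-fold for 2044 of the 13177 genes (15.5%), and for 2031 of the 9304 genes with a mean of at least 10 CPM (21.8%). The median half-width of that interval was 1.23 on the log2 scale over all genes tested. In this fit of all 8 libraries, a 2-fold difference was thus not excluded for most genes.

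The count also depended on the libraries in the fit and on pairing. Without the 2 CD48dim libraries edgeR called 12 of 12813 genes (0.0937%), all 12 higher in CD48bright. Same-numbered libraries deviated together. A fit of the 2 populations alone, blocked on replicate number, called 65 of 12545 genes (0.518%). Of these, 16 (0.128%) were higher in CD34bright and 49 (0.391%) in CD48bright. All 12 genes called without CD48dim were among the 65. With the same block on all 8 libraries 0 genes were called, with 356 at an unadjusted p below 0.05. Without the block the 2 populations alone gave 0 calls, with a lowest adjusted p of 0.0698 in edgeR. Below, "the paired fit" is the blocked fit of the 2 populations alone, and its adjusted p is given where it changes a call. The 2 populations alone leave 2 residual degrees of freedom, and the block leaves fewer. The labels do not state the pairing, which was taken from these same counts. Calls of the paired fit are thus those of a single alternative and rest on very few libraries.

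To describe the differences that held in both libraries a side, a consistent difference was defined with no test. The lowest level of the higher side, as CPM + 0.5, had to be at least 2 times the highest level of the lower side, and the higher side had to average at least 5 CPM. There were 17 such genes higher in CD34bright (0.129% of 13177) and 105 higher in CD48bright (0.797%). Groups simply failed to overlap at 2020 genes higher in CD34bright (15.3%) and 2200 genes higher in CD48bright (16.7%). The 122 consistent differences were fewer than for any other pair of the 4 populations, which had 538 to 1205 by the same rule. Leaving out CD48bright replicate 1 took the counts to 406 and 422, and leaving out any of the 4 libraries raised both. The rule is easier to meet with fewer libraries. Why the rise was largest without CD48bright replicate 1 was not tested. Of the 65 genes called in the paired fit, 47 were consistent differences, 5 of the 17 and 42 of the 105.

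The genes at the edge of the rule were little different from those just past it. Ube2c, Wdr25 and Fam83d were inside at 2.04, 2.08 and 2.09 times, and Hist1h2bk was outside at 1.996 times. On the CD48bright side Plekhm3 was inside at 2.02 times and Ctsh was outside at 1.99 times.

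**Figure D2:**
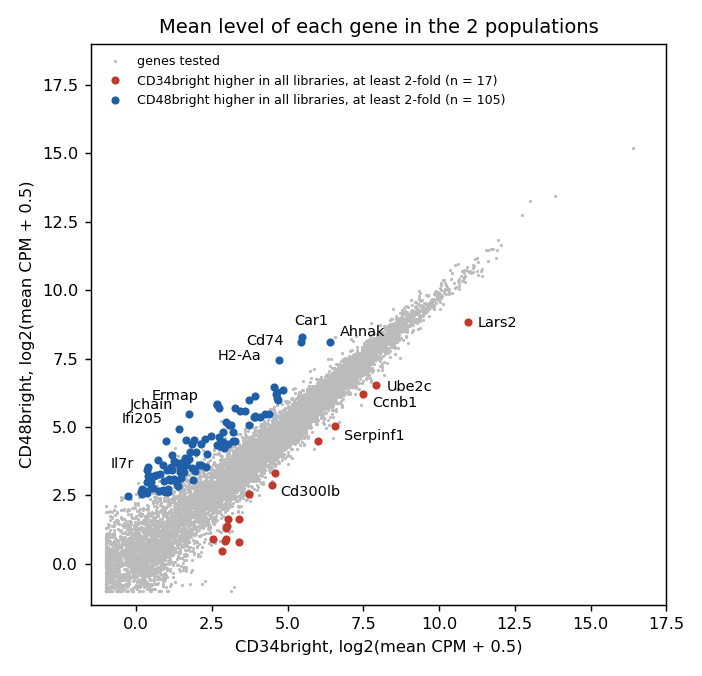
Each grey point is a tested gene, placed by the log2 of its mean CPM + 0.5 in the 2 CD34bright libraries (x axis) and the 2 CD48bright libraries (y axis). The 17 red and 105 blue points are the consistent differences, and the blue group is the larger and lies mostly at low to middle levels.

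Several genes of MHC class II presentation and of dendritic cells were higher in both CD48bright libraries. Of the 105 genes 33 were in any of the 22 lists, and the monocyte and dendritic list held more of them than any other of these lists. The lists were drawn up with earlier results of these data known, so their counts describe these genes and test nothing. Major histocompatibility complex (MHC) class II proteins present peptides to helper T cells and are made by dendritic cells, B cells and some progenitors. Of 39 monocyte and dendritic genes tested, 14 were consistent differences higher in CD48bright (0.797% over all genes) and 0 in CD34bright (0.129%). Another 11 of the 39 had groups that did not overlap with CD48bright higher, which makes 25 against a background of 16.7% of genes. For 2 of the 39 groups did not overlap with CD34bright higher (15.3% over all genes). The median log2 difference of the list, CD34bright minus CD48bright, was -1.29, beside -0.012 for all genes tested. None of the 39 was called in the fit of all 8 libraries. Without CD48dim 4 were called (0.0937% over all genes), and 11 in the paired fit (0.391%). All of these genes were higher in CD48bright, and both shares are for that direction.

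H2-Aa (chromosome 17, 34282744 to 34287823), the alpha chain of the class II molecule I-A, lay at 17.8 and 33.5 CPM in CD34bright and at 193.8 and 157.7 CPM in CD48bright. Both CD48bright libraries were above both CD34bright libraries, by 4.65 times at the nearest (as CPM + 0.5). Its log2 difference was -2.78 ± 0.45 (SE; edgeR adjusted p = 0.468 with all 8 libraries, and adjusted p = 0.000697 in the paired fit). Cd74, the invariant chain that escorts class II molecules, lay at 21.6 and 63.7 CPM against 328.5 and 225.8 CPM, again with no overlap (-2.70 ± 0.84; edgeR adjusted p = 0.00226 in the paired fit). Ciita, the coactivator that switches class II genes on, lay at 0.774 and 3.27 CPM against 11.3 and 13.1 CPM. H2-Eb1, the beta chain of I-E, lay at 4.69 and 8.17 CPM against 58.0 and 15.4 CPM, and H2-Ab1, the beta chain of I-A, at 37.4 and 69.2 CPM against 149.3 and 112.6 CPM. These 2 genes had groups that did not overlap but were under 2 times apart at the nearest libraries, so they were not consistent differences. Of the 5 genes, H2-Aa, Cd74 and H2-Ab1 were called in the paired fit (edgeR adjusted p = 0.0479 for H2-Ab1). Other class II genes are not given here, so these 5 do not describe the whole pathway.

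The promoters of H2-Aa and H2-Eb1 are shown because these genes lay higher together with Ciita. Class II promoters are known to hold a Y box, a CCAAT-type element written here as CTGATTGG. The 250 bases before the start of transcription are from RefSeq (GRCm38.p6), 5′ to 3′ on the strand of the gene, with CTGATTGG on either strand in capitals.
H2-Aa, chr17:34287824-34288073, minus strand: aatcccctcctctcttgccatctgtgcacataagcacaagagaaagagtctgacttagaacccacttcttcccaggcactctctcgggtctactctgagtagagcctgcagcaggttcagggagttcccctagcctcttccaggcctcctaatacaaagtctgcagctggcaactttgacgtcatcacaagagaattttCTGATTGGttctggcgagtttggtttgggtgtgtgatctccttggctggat
H2-Eb1, chr17:34305617-34305866, plus strand: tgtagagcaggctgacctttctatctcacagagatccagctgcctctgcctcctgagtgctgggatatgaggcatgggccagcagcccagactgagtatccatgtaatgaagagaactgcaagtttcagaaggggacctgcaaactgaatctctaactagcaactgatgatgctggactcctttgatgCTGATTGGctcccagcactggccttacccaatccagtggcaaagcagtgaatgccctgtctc
The match began 51 bases before the start in H2-Aa and 62 bases before it in H2-Eb1, on the strand of the gene in both. It contains ATTGG, the reverse complement of CCAAT. Of 32851 mouse promoter stretches of the same length in the table, 3.83% held CTGATTGG on either strand. A match describes the letters and is not evidence of binding.

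Other members of the monocyte and dendritic list, not all of them particular to these cells, followed the same order. Ifi205 and Id2, also on that list, are given further below. Itgax, the integrin CD11c, lay at 4.13 and 4.55 CPM in CD34bright and at 19.1 and 27.2 CPM in CD48bright. Clec9a, a lectin of cross-presenting dendritic cells, lay at 4.80 and 11.02 CPM against 27.3 and 38.6 CPM. Naaa, a lysosomal amidase, lay at 6.86 and 6.82 CPM against 31.9 and 22.9 CPM. All 3 were consistent differences and were called in the paired fit (edgeR adjusted p = 0.0165, 0.0133 and 0.0259). Ahnak, a large scaffold protein, lay at 75.1 and 94.5 CPM against 282.6 and 273.5 CPM (-1.71 ± 0.31; edgeR adjusted p = 0.602, and adjusted p = 0.00147 in the paired fit). Another 5 members were consistent differences and were chosen for mention after their values were seen. They were Cd209a (2.79 and 9.38 against 20.4 and 20.4 CPM), Kmo (8.82 and 6.61 against 18.6 and 22.2 CPM), S100a4 (14.7 and 14.9 against 41.4 and 43.0 CPM), Lgals3 (5.47 and 6.11 against 20.96 and 18.1 CPM) and Pld4 (18.1 and 14.9 against 40.7 and 40.0 CPM). The genes Irf8 and Csf1r, at the root of the monocyte and dendritic lineages, differed less and in opposite directions. Irf8, their central transcription factor, lay at 143.2 and 141.4 CPM against 169.8 and 207.2 CPM, and Csf1r, the receptor for macrophage colony-stimulating factor, at 60.4 and 62.4 CPM against 45.7 and 50.8 CPM. Siglech, of plasmacytoid dendritic cells, was again higher in both CD48bright libraries, at 1.34 and 6.82 CPM against 9.31 and 25.05 CPM. In CD41- CD9- cells it lay at 199.3 and 151.1 CPM.

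Of 64 transcription factors of blood formation that were tested, 4 were consistent differences, and all 4 were higher in CD48bright (0.797% over all genes). They have known roles in dendritic or lymphoid cells. Id2, an inhibitor of basic helix-loop-helix factors, lay at 1.55 and 4.90 CPM in CD34bright and at 21.7 and 22.9 CPM in CD48bright. Irf4 lay at 0.258 and 2.701 CPM against 7.91 and 36.4 CPM, Spib at 0.980 and 2.42 CPM against 8.32 and 14.0 CPM, and Ikzf3 at 0.877 and 0.853 CPM against 4.27 and 13.3 CPM. Id2 and Irf4 were called in the paired fit (edgeR adjusted p = 0.0133 and 0.00191). The median log2 difference of the whole list was -0.12. Groups did not overlap for 19 factors with CD48bright higher (16.7% over all genes) and 3 with CD34bright higher (15.3%). Gata1, the main erythroid and megakaryocyte factor, lay at 24.9 and 23.2 CPM against 34.5 and 27.9 CPM. Gata2 (319.9 and 482.0 against 395.8 and 311.8 CPM) and Runx1 (445.5 and 668.2 against 349.8 and 539.6 CPM) had groups that overlapped. Cebpa, needed for granulocyte formation, lay at 70.9 and 49.7 CPM against 43.2 and 24.9 CPM and did not overlap, but its log2 difference of 0.82 ± 0.48 did not pass (edgeR adjusted p = 1).

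Some early lymphoid genes were higher in CD48bright. Of 22 lymphoid progenitor genes tested, 5 were consistent differences higher in CD48bright (0.797% over all genes) and 0 in CD34bright (0.129%). Groups did not overlap for 10 with CD48bright higher (16.7% over all genes) and for 1 with CD34bright higher (15.3%). The median log2 difference was -0.70, with 7 of the 22 positive, and it was -0.25 without CD48bright replicate 2 and -1.13 without CD48bright replicate 1. Il7r (chromosome 15, 9506159 to 9529941), the receptor for interleukin 7, lay at 0.413 and 1.14 CPM in CD34bright and at 6.71 and 14.0 CPM in CD48bright. The CD41- CD9- libraries held far more, 199.6 and 187.0 CPM. The log2 difference of Il7r between CD34bright and CD48bright was -3.76 ± 0.59 (edgeR adjusted p = 0.468, and adjusted p = 0.0259 in the paired fit and without CD48dim). Dntt, which adds bases to antigen receptor joints, lay at 18.5 and 11.02 CPM against 39.9 and 98.3 CPM, beside 1503 and 907.1 CPM in CD41- CD9- cells. The CD41- CD9- libraries thus stood far above both for these genes. Ly6d, a surface marker of early B lineage cells, lay at 0.980 and 1.71 CPM against 7.75 and 15.4 CPM. Tcf7, a factor of T and innate lymphoid cells, lay at 3.15 and 2.49 CPM against 16.1 and 11.3 CPM, and it overlaps the more strongly counted gene Skp1a in libraries without strand, so its level is uncertain. Jchain, which joins antibody polymers, lay at 0.774 and 4.98 CPM against 49.7 and 37.7 CPM and was at most 0.630 CPM in the other 4 libraries. Il7r, Ly6d, Jchain and Dntt were called in the paired fit, Tcf7 was not. Flt3 and Notch1 had groups that overlapped, at 67.1 to 83.6 CPM and 84.6 to 88.2 CPM in CD34bright against 62.4 to 80.9 CPM and 80.2 to 88.8 CPM in CD48bright.

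Markers of mature lymphocytes were low in all 4 libraries and leaned the same way. Over all genes tested 6751 of 13177 had a negative log2 difference. Of 14 B cell genes tested, 13 had a negative log2 difference (median -1.68), and 6 had groups that did not overlap with CD48bright higher (16.7% over all genes). That median was -0.95 without CD34bright replicate 1, -3.48 without CD34bright replicate 2 and -0.86 without CD48bright replicate 2. The summed level of the 14 genes was 27.0 and 29.7 CPM in CD34bright and 50.5 and 72.4 CPM in CD48bright. Pax5 was at 0 in both CD34bright libraries, and Cd79a was at 0 and 1.42 CPM against 0.416 and 4.30 CPM. Cd22, an inhibitory B cell receptor, was the 1 consistent difference of the list, at 0.928 and 2.84 CPM against 8.06 and 18.2 CPM. Of 13 T and NK cell genes tested 12 had a negative log2 difference. Groups did not overlap for 8 with CD48bright higher (16.7% over all genes) and for 1 with CD34bright higher (15.3%). The median of this list, -1.59, was -1.04 without CD34bright replicate 1 and -3.70 without CD34bright replicate 2. The sum was 42.4 and 50.5 CPM against 62.1 and 87.4 CPM. Cd3e lay between 0.052 and 3.59 CPM. The part of mature lymphocytes in the lymphoid and class II differences was not tested. In bulk libraries fewer cells of a type and less RNA per cell cannot be told apart.

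Most erythroid genes tested also had lower levels in CD34bright than in CD48bright. Of 35 tested, 30 had a negative log2 difference, beside 6751 of all 13177 genes. Groups did not overlap for 19 with CD48bright higher (16.7% over all genes) and for 0 with CD34bright higher (15.3%). The 5 consistent differences of the list were all higher in CD48bright (0.797% over all genes). The median of the list was -1.15. Car1 (chromosome 3, 14766214 to 14808365), carbonic anhydrase 1 of red cell precursors, lay at 35.2 and 51.9 CPM in CD34bright and at 445.7 and 176.3 CPM in CD48bright. Both CD48bright libraries were higher, replicate 1 most of all (-2.84 ± 0.46; edgeR adjusted p = 0.468, and adjusted p = 0.00205 in the paired fit). Ermap, a red cell membrane protein, lay at 3.76 and 7.96 CPM against 78.2 and 35.2 CPM (-3.28 ± 0.61; edgeR adjusted p = 0.602, and adjusted p = 0.00402 in the paired fit). Ank1, the ankyrin of the red cell skeleton, lay at 1.03 and 0.569 CPM against 9.26 and 8.41 CPM, Kel, the Kell blood group protein, at 2.73 and 1.92 CPM against 14.3 and 10.6 CPM, and the water channel Aqp1 at 10.2 and 13.01 CPM against 64.7 and 30.4 CPM. The erythroid regulators and globins were less clear. Klf1, the erythroid Krüppel-like factor, lay at 9.59 and 15.0 CPM against 47.7 and 8.87 CPM, so its groups overlapped. Epor, the erythropoietin receptor, lay at 4.07 and 9.31 CPM against 19.7 and 9.87 CPM, and the beta globin Hbb-bs was at 0 in replicate 2 of both populations. Without CD34bright replicate 1 the median of the list was -0.75, and without CD34bright replicate 2 it was -1.70.

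**Figure D3:**
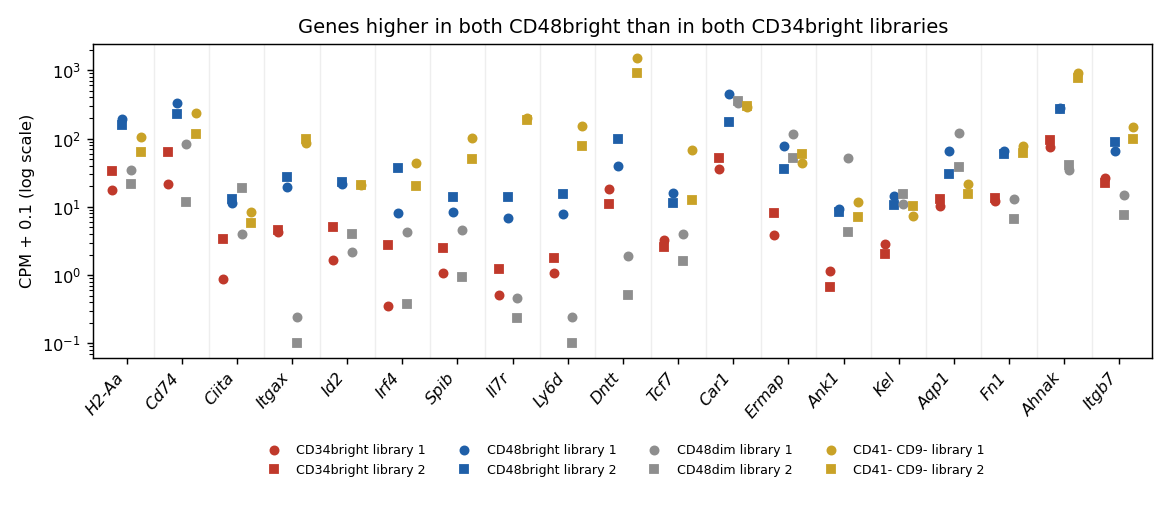
CPM + 0.1 on a log axis for 19 consistent differences higher in CD48bright, in all 8 libraries. Circles are replicate 1, squares replicate 2, and colours are the populations. Blue CD48bright points lie above red CD34bright points for every gene shown, and the CD41- CD9- points reach far above both for Il7r, Ly6d and Dntt.

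Other consistent differences higher in CD48bright were surface, adhesion and immune genes. Fn1, fibronectin, lay at 12.2 and 13.4 CPM in CD34bright and at 66.5 and 58.5 CPM in CD48bright (-2.28 ± 0.43; edgeR adjusted p = 0.626, and adjusted p = 0.00191 in the paired fit). Atp1b2, a beta subunit of the sodium pump, lay at 6.91 and 11.4 CPM against 51.1 and 52.1 CPM. Plbd1, a phospholipase-like protein, lay at 3.51 and 8.74 CPM against 51.6 and 51.7 CPM. These 3 genes separated the populations with little spread between the CD48bright replicates. Slamf7, of the family of CD48, lay at 1.75 and 3.48 CPM against 21.8 and 22.7 CPM. The integrin subunits Itgb7 and Itgb2 lay at 26.4 and 22.3 CPM against 65.1 and 88.8 CPM, and at 25.01 and 25.2 CPM against 71.8 and 55.0 CPM. Both were called in the paired fit (edgeR adjusted p = 0.0133 and 0.0408). The interferon-inducible gene Ifi205 had the widest gap, 7.90 times, at 1.75 and 2.63 CPM against 24.2 and 36.0 CPM, but it belongs to a family of near copies and its estimated counts carried a posterior SD of 11.6% at the most, so its level is uncertain. Mx1, an interferon-induced antiviral protein, lay at 2.37 and 5.47 CPM against 15.5 and 25.4 CPM, while 28 interferon-stimulated genes in all were evenly divided, 14 positive and 14 negative. Pid1, an adaptor protein, lay at 0.670 and 0.924 CPM against 7.75 and 14.4 CPM. Lifr, the receptor for leukaemia inhibitory factor, lay at 1.34 and 2.701 CPM against 5.98 and 8.32 CPM, and Gzmb, granzyme B, at 1.702 and 2.701 CPM against 18.5 and 6.13 CPM. These 3 were consistent differences at low levels, where few reads stand behind each value.

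Further genes of the 105, chosen after their values were seen and outside the lists, belong to pathways near those above. Sensors of foreign nucleic acid were among them, Tlr3 at 0.103 and 2.06 CPM in CD34bright and 7.44 and 10.6 CPM in CD48bright, and Tlr9 at 2.79 and 1.99 CPM against 8.79 and 12.1 CPM. Irf5, a factor downstream of such receptors, lay at 7.89 and 9.38 CPM against 23.4 and 19.9 CPM. Ifi30, a thiol reductase of antigen processing, lay at 14.4 and 14.1 CPM against 33.7 and 46.7 CPM. Cybb, the large subunit of the phagocyte oxidase, lay at 15.5 and 14.0 CPM against 48.6 and 32.6 CPM, and the repressor Bcl6 at 13.1 and 12.7 CPM against 34.0 and 31.8 CPM. The CD34bright replicates were close to each other for these last 3 genes, and all 6 had groups at least 2 times apart. Of the 6 only Ifi30 was called in the paired fit (edgeR adjusted p = 0.0479). Il2rb, the beta chain of the receptor for interleukin 2, lay at 1.08 and 5.05 CPM against 11.3 and 28.8 CPM, and Trib2, a pseudokinase, at 8.56 and 12.1 CPM against 55.0 and 40.7 CPM. These 2 genes were called in the paired fit (edgeR adjusted p = 0.0133 and 0.00626). Slc40a1, the iron exporter ferroportin, lay at 2.37 and 0.711 CPM against 12.6 and 8.14 CPM.

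Most of the 105 genes were also nearer to the CD48bright level in the CD41- CD9- libraries. By mean log2 level, CD41- CD9- cells lay nearer to CD48bright than to CD34bright for 93 of the 105, and CD48dim cells for 49 of the 105, with 43 shared. Of the 17 genes higher in CD34bright, CD48dim cells lay nearer to CD48bright for 14 and CD41- CD9- cells for 11. Both lay nearer to CD48bright for 9 of the 17. The shares over all genes were not taken. By the distance above, CD41- CD9- libraries also lay somewhat nearer to CD48bright (0.725 to 0.905) than to CD34bright libraries (0.832 to 0.974). Being nearer does not place a population at the CD48bright level, as Il7r shows. Membership of either set was fixed by CD34bright and CD48bright levels, so these counts describe the sets and no test was made.

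Genes of mitosis were higher in CD34bright as a group. All 30 mitosis genes tested had a positive log2 difference, with a median of 0.59, against 48.7% of all genes tested. In 24 of the 30 both CD34bright libraries were above both CD48bright libraries, beside 15.3% of genes, and in 0 of the 30 the reverse held. Only Ccnb1 and Ube2c were consistent differences (0.129% over all genes), since most of the shifts were under 2-fold. None passed in the fit of all 8 libraries, and 5 were called in the paired fit, all higher in CD34bright (0.128% over all genes). When libraries were scaled by their totals alone, which shifted the median of all genes from -0.012 to -0.13, 29 of the 30 remained positive with a median of 0.47. The summed level of the 30 genes was 8332 and 9246 CPM in CD34bright and 5681 and 7013 CPM in CD48bright, beside 2987 and 5461 CPM in CD48dim and 5985 and 7279 CPM in CD41- CD9-.

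Ccnb1 (chromosome 13, 100778739 to 100786486), cyclin B1, which drives entry into mitosis, lay at 181.2 and 179.2 CPM in CD34bright and at 81.5 and 64.8 CPM in CD48bright. Its log2 difference was 1.2997 ± 0.32 (edgeR adjusted p = 1, and adjusted p = 0.00726 in the paired fit). Ube2c (chromosome 2, 164769929 to 164772902), the ubiquitin-conjugating enzyme of the anaphase-promoting complex, lay at 213.8 and 271.3 CPM against 78.3 and 104.6 CPM (1.41 ± 0.42; edgeR adjusted p = 1, and adjusted p = 0.00295 in the paired fit). Both CD34bright libraries were above both CD48bright libraries by a little over 2 times in each gene. Nusap1, Hmmr and Ccnb2 were the other 3 called in the paired fit. Ccnb2, cyclin B2, lay at 152.0 and 174.1 CPM against 85.8 and 82.6 CPM. Cdc20, an activator of the same complex, lay at 85.6 and 75.3 CPM against 52.5 and 23.4 CPM. Mki67, the proliferation marker Ki-67, did not separate the groups, at 1980 and 2560 CPM against 1450 and 2309 CPM. Fam83d, a mitotic spindle protein outside the list, lay at 21.6 and 25.02 CPM against 10.1 and 8.78 CPM and was a consistent difference.

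Promoters of the 3 consistent mitotic genes are shown because genes of the late cell cycle are known to share CCAAT elements and a CHR element (TTTGAA) near the start. The 250 bases before the start are from RefSeq (GRCm38.p6), 5′ to 3′ on the strand of the gene, with CCAAT and TTTGAA on either strand in capitals, so that ATTGG and TTCAAA mark the opposite strand.
Ccnb1, chr13:100786487-100786736, minus strand: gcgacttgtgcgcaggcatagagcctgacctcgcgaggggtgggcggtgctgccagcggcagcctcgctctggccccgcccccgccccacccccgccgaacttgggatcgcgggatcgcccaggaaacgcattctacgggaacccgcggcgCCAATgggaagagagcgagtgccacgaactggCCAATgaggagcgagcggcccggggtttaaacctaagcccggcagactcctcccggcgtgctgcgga
Ube2c, chr2:164769679-164769928, plus strand: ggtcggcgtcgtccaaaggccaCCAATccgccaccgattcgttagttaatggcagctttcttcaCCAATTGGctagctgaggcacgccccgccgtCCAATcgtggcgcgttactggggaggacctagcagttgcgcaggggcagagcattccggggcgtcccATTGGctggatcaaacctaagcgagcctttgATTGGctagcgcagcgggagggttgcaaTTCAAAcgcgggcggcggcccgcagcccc
Fam83d, chr2:158767849-158768098, plus strand: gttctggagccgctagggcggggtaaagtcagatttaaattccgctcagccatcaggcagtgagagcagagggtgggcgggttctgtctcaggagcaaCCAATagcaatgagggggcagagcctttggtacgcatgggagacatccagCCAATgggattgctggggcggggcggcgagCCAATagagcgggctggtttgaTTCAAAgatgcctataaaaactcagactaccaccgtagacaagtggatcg
Ccnb1 held 2 matches to CCAAT, at 99 and 67 bases before the start, Ube2c held 6 and Fam83d held 3. TTTGAA was found on the opposite strand 29 bases before the start in Ube2c and 50 bases before it in Fam83d, and these letters are not in this stretch of Ccnb1. In Ube2c 2 of the CCAAT matches overlap each other on opposite strands. Of all 32851 stretches of this length 33.8% (11120) held CCAAT and 5252 held TTTGAA.

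**Figure D4:**
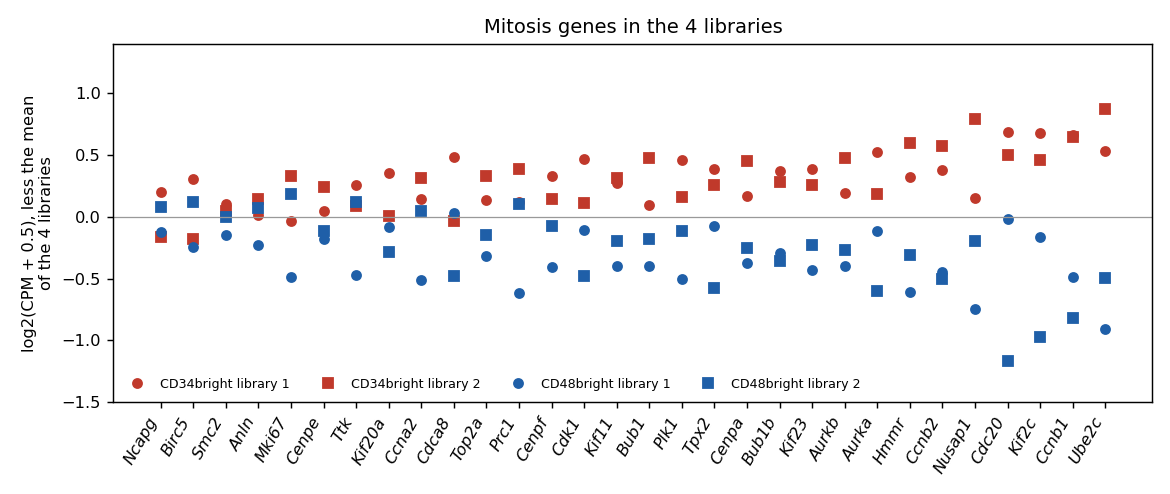
Each column is a mitosis gene, ordered by its log2 difference, and each point is a library, as log2(CPM + 0.5) less the mean of the 4 libraries. Red CD34bright points lie above blue CD48bright points in 24 of the 30 columns, with Ccnb1 and Ube2c at the right end.

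The genes of DNA synthesis did not show that order. Of 38 DNA replication genes tested 19 were positive and 19 negative, with a median of -0.001, though 10 had groups that did not overlap with CD34bright higher (15.3% over all genes) and 3 with CD48bright higher (16.7%). The median was 0.22 without CD34bright replicate 2, -0.17 without CD34bright replicate 1 and 0.18 without CD48bright replicate 1. Histone genes of the replication-dependent cluster appeared among the consistent differences. Hist1h4d lay at 66.0 and 62.5 CPM in CD34bright and at 29.4 and 14.1 CPM in CD48bright (edgeR adjusted p = 0.0221 in the paired fit). Hist1h3b lay at 7.06 and 12.8 CPM against 1.72 and 0.731 CPM. Histone genes of this cluster are near copies, and the counting could split their reads.

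Outside the cell cycle, the genes higher in CD34bright were few and mixed. Lars2 (chromosome 9, 123366927 to 123462675), the mitochondrial leucyl-tRNA synthetase, lay at 1974 and 2006 CPM in CD34bright and at 678.7 and 238.1 CPM in CD48bright. The CD34bright libraries were alike and the CD48bright libraries differed from each other (2.12 ± 0.53; edgeR adjusted p = 1, and adjusted p = 0.00205 in the paired fit). Rn45s was also lowest in CD48bright replicate 2, at 9142 CPM against 65350 to 105942 CPM in the other 3, and its part in the level of Lars2 was not tested. Serpinf1, pigment epithelium-derived factor, lay at 104.2 and 82.8 CPM against 35.2 and 29.9 CPM (1.52 ± 0.49; edgeR adjusted p = 1, and adjusted p = 0.00886 in the paired fit). Cd300lb, an activating myeloid receptor, lay at 23.8 and 19.7 CPM against 7.91 and 5.76 CPM. Fgd5, a guanine nucleotide exchange factor used as a marker of stem cells, lay at 4.80 and 9.52 CPM against 1.09 and 1.46 CPM, beside 39.6 and 18.0 CPM in CD48dim cells. Acot1, an acyl-CoA thioesterase, lay at 12.995 and 12.4 CPM against 5.31 and 5.39 CPM. Syde1 lay at 10.6 and 9.67 CPM against 3.48 and 1.74 CPM, but overlaps Ilvbl, which held 2243 counts against its own 913, so its level is uncertain. Of these 6 genes Lars2 and Serpinf1 were called in the paired fit. The other 7 of the 17, Nthl1, Magee2, Ephb2, Gfpt2, Syt11, Wdr25 and Hist1h3b, averaged 5 to 10 CPM in CD34bright, and none was called.

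The stem cell, megakaryocyte and granulocyte lists held few or no consistent differences. Short lists would hold few or none at the shares over all genes, 0.129% (CD34bright higher) and 0.797% (CD48bright higher). A difference in these programmes is not excluded. Of 32 stem cell genes tested 19 were positive and 13 negative, and Fgd5 was the only consistent difference. Their median of 0.12 ran from -0.054 (without CD34bright replicate 2) to 0.16 (without CD48bright replicate 2). Hlf lay at 145.6 and 232.1 CPM in CD34bright and at 131.9 and 175.5 CPM in CD48bright, and Mecom at 8.82 and 13.2 CPM against 10.98 and 6.95 CPM. Of 29 megakaryocyte and platelet genes 14 were positive and 15 negative with 0 consistent differences. Their median of -0.051 was -0.45 without CD34bright replicate 2 and 0.14 without CD34bright replicate 1. The 29 granule and neutrophil progenitor genes had a median of -0.09 and 0 consistent differences. Mpo, myeloperoxidase, lay at 16433 and 12863 CPM against 15263 and 6814 CPM, high in all 4 libraries and lowest in CD48bright replicate 2. Without CD48bright replicate 1 the median of that list was 0.70. The 14 mature neutrophil genes summed to 144.2 and 188.7 CPM in CD34bright and 184.5 and 135.1 CPM in CD48bright.

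Basophil and mast cell genes split by gene. Cpa3, mast cell carboxypeptidase, lay at 396.5 and 565.1 CPM in CD34bright and at 365.0 and 405.9 CPM in CD48bright, and Ms4a2, the beta chain of the IgE receptor, at 69.7 and 85.1 CPM against 54.8 and 55.4 CPM. Mcpt8, a basophil protease, lay at 62.7 and 52.4 CPM against 197.7 and 81.9 CPM, and Prss34, another, at 98.6 and 88.7 CPM against 554.4 and 73.6 CPM. The high values of both proteases came from CD48bright replicate 1. Over the 29 genes tested 15 were positive and 14 negative.

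Immediate early genes and ribosomal protein genes each leaned one way by small amounts. Over all 13177 genes tested 6413 were positive and 6751 negative. Of 25 immediate early genes, which respond to stress and handling within minutes, 23 were negative with a median of -0.44, and 8 had groups that did not overlap with CD48bright higher (16.7% over all genes). The median was -0.25 without CD34bright replicate 1 and -0.28 without CD48bright replicate 2. Fos lay at 487.1 and 582.9 CPM against 752.9 and 837.9 CPM. Of 82 ribosomal protein genes 78 were positive with a median of 0.24, and 7 had groups that did not overlap with CD34bright higher, a smaller share than the 15.3% over all genes. The median was -0.15 without CD34bright replicate 1 and 0.045 without CD48bright replicate 2, so its sign rests on single libraries. With library totals as the scaling 62 of the 82 were positive and the median was 0.12. None of the genes of these 2 lists was a consistent difference or was called in the paired fit.

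**Figure D5:**
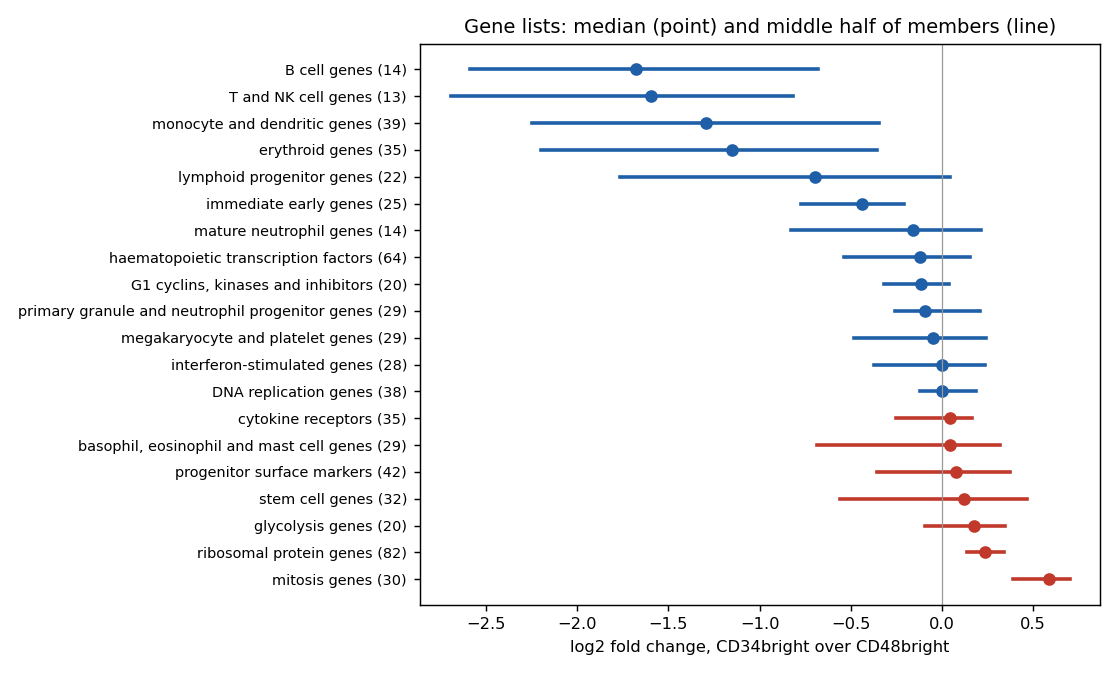
For each list of genes with its number tested, the point is the median log2 difference, CD34bright over CD48bright, and the line spans its interquartile range. B cell, T and NK cell, monocyte and dendritic, and erythroid lists have medians from -1.68 to -1.15, the lymphoid progenitor list has -0.70 and immediate early genes -0.44, and the mitosis list has 0.59.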

How the data were processed

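Gene-level tables of 8 libraries were used. Per the labels' protocols, 5 ng of total RNA was amplified to cDNA and 1 ug of cDNA entered library preparation, and the libraries are not stranded, so reads of overlapping or antisense genes were not separable. Per the submitters' processing notes, STAR 2.7.2a, RSEM 1.3.2, edgeR 3.30.3 and build mm10 were used. For the settings and the annotation nothing was given in the sources used. The deposited expected counts, per the file headers in RSEM's layout, were rounded to whole numbers. The posterior SD of the count, another deposited column, was used only to mark genes whose reads are shared. The second deposited tables were not used.

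Of 24411 genes, 13177 passed filterByExpr and were tested by edgeR 4.0.16 (R 4.3.3) with TMM scaling, quasi-likelihood F-tests, a mean for each population over all 8 libraries and 4 residual degrees of freedom. The biological coefficient of variation was 49.8%. P-values are two-sided, adjusted by Benjamini-Hochberg over all genes tested and called below 0.05. Levels are CPM of the TMM-scaled library. The standard error is the log2 fold change divided by the square root of F, and intervals are 95%. Alternatives used DESeq2 1.42.0, limma 3.58.1 (voom), other scalings, no filter, other sets of libraries and the replicate number as a block. Same-numbered libraries pair by the data: over 9304 genes the correlations of their deviations from the population means were 0.2309 to 0.4471 in the 6 pairs of populations and 0.3563 for CD34bright and CD48bright. The labels do not say what the number marks.

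Genes named are those of the sort gate, up to 12 coding genes a direction with the widest gap among consistent differences of at least 10 CPM, up to 4 members a list by the same gap, and Malat1 and Rn45s, 45 in all. Further list members, and a few consistent differences, promoters and class II genes, were chosen after their values were seen. The comparison, the 22 gene lists and the rules were chosen with earlier results of these data known. Gene positions are from RefSeq GRCm38.p6, the same assembly as mm10. Of the deposited symbols, 23194 matched directly and 1096 through a synonym.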

Additional observations from a re-analysis of the deposited data

How the results depend on the processing

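The count of 0 genes called between CD34bright and CD48bright became 12 without the 2 CD48dim libraries, 65 with the replicate block in the 2 populations alone, 85 with the replicate block without CD48dim (an alternative chosen after seeing the data), 39 with no filter on low counts and 33 with DESeq2. It was 0 to 20 when single libraries were left out, with 17 and 20 without CD48dim replicate 1 and 2. It stayed 0 with RLE scaling, library totals, limma-voom, the replicate block on all 8 libraries and the 2 populations alone. The 111 genes between CD34bright and CD41- CD9- became 1081 in those 2 populations alone, 725 without CD48dim, 266 and 1432 with the replicate block (all 8 libraries, and the 2 populations), 532 with no filter and 630 with DESeq2, and 3 to 772 without single libraries. The 28 between CD48bright and CD41- CD9- became 307, 380, 99, 1070, 301 and 359 in the same order, 13 with library totals, and 0 to 435 without single libraries. The cause of these shifts was not tested.

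Consistent differences higher in CD34bright numbered 89 at 1.5 times, 1 at 3 times, 9 with a minimum of 10 CPM and 33 to 406 without single libraries. Those higher in CD48bright numbered 201, 38, 161 with a minimum of 2 CPM, and 181 to 422. The mean Spearman correlation across the populations, 0.964, was 0.936 over genes of at least 10 CPM. Of the 45 named genes, 5 log2 differences changed sign when 1 library was left out, none of them a consistent difference. Fcgr3 ran from -1.19 to 0.75 (without CD48bright replicate 2 and replicate 1), Fcgr2b from -0.14 to 0.60 (the same) with -0.033 without CD34bright replicate 1, and Itga2b from -0.062 to 0.48 (the same) with -0.038 without CD34bright replicate 2. Cd48 ran from -0.38 to 0.058 (without CD34bright replicate 1 and replicate 2) with 0.033 without CD48bright replicate 2. Malat1 ran from -0.94 to 0.23 (without CD34bright replicate 2 and replicate 1) with 0.20 without CD48bright replicate 2. Named genes now called numbered 24 with the replicate block in the 2 populations and 15 with DESeq2. With 2 libraries a side and 10318447 counts in the shallowest, differences under about 2-fold and genes under 5 CPM were poorly resolved. Larger differences were poorly resolved too in the fit of all 8 libraries, which called no gene. There the median half-width of the 95% interval was 2.35-fold over all genes tested. For genes with a mean of at least 10 CPM it was 2.04-fold.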
